A study of Mus musculus with 11 samples.

Results

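The L1 family of cell adhesion molecules was followed at the level of its 4 genes, Nfasc, Nrcam, Chl1 and L1cam, which were chosen by name from the 22609 genes listed in the count table. All 4 members exceeded the minimum of 10 reads over all libraries, and the comparisons were made across 11 libraries of mouse tissue labelled cerebellar hemisphere. Control mice carried floxed alleles without Cre, of both genes (NfascFx/Fx;AnkGFx/Fx) by the series design and of 1 or both genes by the study's methods (n = 3). NFKO mice were Pcp2-Cre;NfascFx/Fx (n = 3), AnkGKO mice were Pcp2-Cre;AnkGFx/Fx (n = 2) and DKO mice were Pcp2-Cre;NfascFx/Fx;AnkGFx/Fx (n = 3). Mice of every group are labelled as untreated littermates of mixed sex, which Xist values given with L1cam do not bear out for NFKO and AnkGKO, and the labels give postnatal day 30 in 1 field and postnatal day 32 in another. The control genotype is written with Pcp2-Cre at 1 place of the study's text, and the strain is given both as C57BL/6J and as a mixed C57BL/6J;129 background. By design, Pcp2-Cre drives recombination mainly in Purkinje cells and leaves floxed alleles in the other cells of the dissected tissue intact. Where recombination took place was not tested here. Bulk polyA RNA was sequenced, and a lower value in such samples cannot tell fewer cells of a type from less RNA per cell. The labels call the libraries biological replicates without naming individual mice.

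L1 family members are transmembrane proteins with extracellular immunoglobulin and fibronectin type III domains and a short cytoplasmic tail that binds ankyrins. Neurofascin, the product of Nfasc, is made as a neuronal form, NF186, at the axon initial segment and nodes of Ranvier, and as a glial form, NF155, at the paranodal loops of myelinating cells. Reads counted on the whole gene, as here, sum both forms. NrCAM, the product of Nrcam, is found with NF186 at nodes and at the initial segment. CHL1, close homolog of L1 and the product of Chl1, and L1, the product of L1cam, act in axon growth, guidance and fasciculation. Ankyrin G, encoded by Ank3 and written AnkG in the genotypes, links NF186 and NrCAM to spectrin and clusters sodium channels at the initial segment.

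The tail feature that joins the 4 genes in this study is the ankyrin-binding motif, known as FIGQY after the residues it has in most members, whose coding bases are shown because the second targeted gene encodes an ankyrin. Each stretch is 63 bases long, 5′ to 3′ on the coding strand, with the 15 bases that code for the motif in capitals. The bases were read from the GENCODE canonical transcript of each gene and matched the GRCm39 genome, where each stretch lies in the coding part of 1 exon.
Nfasc: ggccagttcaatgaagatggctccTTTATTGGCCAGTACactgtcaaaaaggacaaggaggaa
Nrcam: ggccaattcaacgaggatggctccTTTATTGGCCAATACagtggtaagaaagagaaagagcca
Chl1: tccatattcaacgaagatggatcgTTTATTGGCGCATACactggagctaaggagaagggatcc
L1cam: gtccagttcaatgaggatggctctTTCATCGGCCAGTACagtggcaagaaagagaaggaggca
The Nfasc stretch is at chr1:132498221-132498283 on the minus strand, that of Nrcam at chr12:44645245-44645307 on the plus strand, that of Chl1 at chr6:103706186-103706248 on the plus strand and that of L1cam at chrX:72898704-72898766 on the minus strand. Between pairs of members, 10 to 14 of the 15 motif bases and 61.9% to 84.1% of the 63 bases were the same. In Chl1 the motif is a variant, since the fourth codon in capitals codes for a different amino acid than in the other members. Chl1 was also the most distant member over the whole stretch, at 61.9% to 68.3% identity with the others, and Nrcam and L1cam were the closest pair at 84.1%. The longest run of bases shared by any pair of canonical transcripts was 23, between Nfasc and L1cam, which is shorter than the 100-base reads of the labels. The motif was annotated in 44 of 56 protein-coding transcripts of Nfasc, 111 of 126 of Nrcam, 27 of 35 of Chl1 and 17 of 20 of L1cam, and the counts do not separate transcripts.

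The genes themselves lie on 4 chromosomes of GRCm39. Nfasc spans positions 132492428 to 132669564 of chromosome 1, Nrcam 44375287 to 44651976 of chromosome 12, Chl1 103487353 to 103727508 of chromosome 6 and L1cam 72897378 to 72939711 of chromosome X. Of all 50-base words in its annotated transcripts, none of Nfasc occurred in another gene, against 0.177% for Nrcam, 0.164% for Chl1 and 1.15% for L1cam. Exons of Gm71019 and Gm59406 overlap Nfasc and Nrcam on the opposite strand, and exons of Arhgap4 overlap L1cam on its own strand. The kit keeps strand information but the strand setting of the counting is not given in the sources used here, so reads of these overlaps could be uncertain.

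Reads counted on genes ranged from 38890851 to 55822361 per library (median 47428701), and 3 reads, taken as the floor, equalled 0.0537 to 0.0771 CPM, that is, counts scaled to a common library total. This floor covers counting error only, and the least abundant member, Chl1, had 3664 to 6905 reads in every library. Ank3, the other targeted gene, was at 360, 375 and 353 CPM in Control, 407, 386 and 385 in NFKO, 156 and 200 in AnkGKO, and 185, 160 and 174 in DKO. The tissue label was compared with markers fixed for its cell types. Pcp2, which defines Purkinje cells, ranged from 0.0929 to 28.3 CPM. It exceeded 2.14 CPM only in Control replicate 1 and NFKO replicate 1, at 26.3 and 28.3. Gabra6, which defines cerebellar granule cells, was at or below the floor in 3 libraries. The other Purkinje and granule cell markers were above the floor in every library, with Fat2 at 0.119 to 143 CPM and Itpr1 at 108 to 650. Summed over 8 genes each, Purkinje cell markers ranged from 236 to 1301 CPM and granule cell markers from 119 to 797. The sum of 10 Hox genes of paralog groups 6 to 9, which mark the trunk levels of the neuraxis, exceeded the sum of the 8 granule cell markers in 9 of 11 libraries. Control replicate 1 and NFKO replicate 1 stood apart with the highest granule cell marker levels, and results without them are given where they differ. These marker values go against a purely cerebellar tissue. The share of RNA from Purkinje cells, where Cre acts by design, could not be measured. Pcp2 was at 0.103 and 0.174 CPM in AnkGKO and at 0.210, 0.374 and 0.255 CPM in DKO, the groups with the lower Ank3. In which cells the Ank3 alleles were recombined was not tested.

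Expression of all members was first compared within libraries. Per kilobase (kb) of canonical transcript, the order of levels was Nfasc, L1cam, Nrcam, Chl1 in 11 of 11 libraries, and the order was the same with the length of all annotated exons together. Nfasc averaged 71.1 ± 10.98 CPM per kb (SD, n = 11), L1cam 30.2 ± 2.45, Nrcam 25.8 ± 1.92 and Chl1 13.7 ± 1.95. Nfasc thus supplied 50.3% ± 3.38 of the summed family level per kb, from 46.4% to 58.4% across libraries. The closest neighbours were L1cam and Nrcam, whose ranges over libraries overlapped (26.4 to 34.7 against 22.1 to 29.4 CPM per kb) although L1cam was above Nrcam within each library. With the longer exon union the mean share of Nfasc was 46.9% and that of L1cam 25.6%, so the shares depend on the length used.

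**Figure D1:**
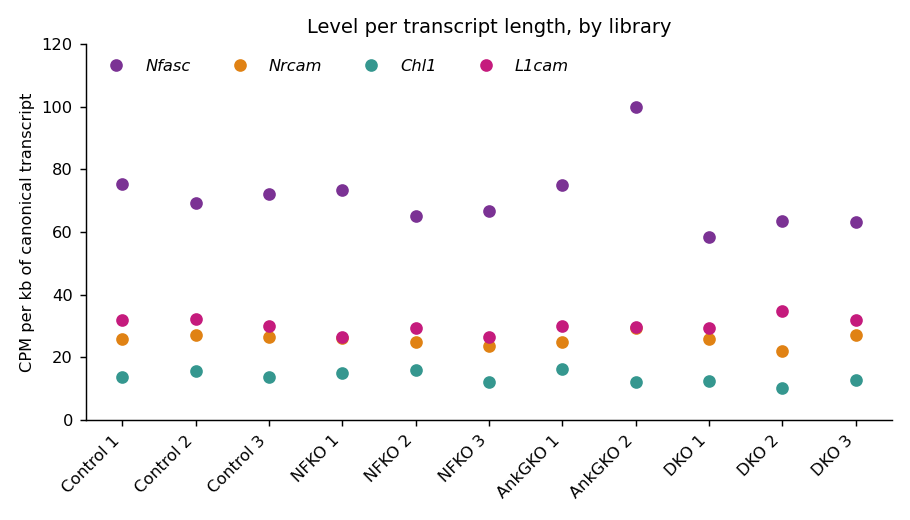
Level of the 4 L1 family genes in each of the 11 libraries, in CPM per kb of canonical transcript, with 1 point per gene and library. Nfasc lies highest in every library, from 58.5 to 99.9, and Chl1 lowest, from 10.4 to 16.5.

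Nfasc and Chl1 varied more between libraries than Nrcam and L1cam, but for Nfasc this rested on 1 library. Its coefficient of variation over the 11 libraries was 15.4%, against 14.3% for Chl1, 8.11% for L1cam and 7.45% for Nrcam, while the median of the 10239 genes with a mean of at least 10 CPM was 7.78%. Without AnkGKO replicate 2 the coefficient of variation of Nfasc was 8.39%, beside 14.3% for Chl1, 8.50% for L1cam and 6.26% for Nrcam. In mean CPM not corrected for length, Nfasc ranked 140 and Nrcam 591, whereas L1cam ranked 1260 and Chl1 2080 among the 17557 genes tested. The members did not rise and fall together over the libraries. Pearson correlations of log2 CPM between pairs lay from -0.24 for Chl1 with L1cam to 0.58 for Nfasc with Nrcam (n = 11 libraries of 4 genotypes, given as a description), and the last of these was 0.21 by rank.

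Nfasc, the gene targeted in NFKO and DKO, was measured to ask whether its level in the tissue differs between genotypes. The counts sum all exons and do not separate the floxed ones from the others. They therefore do not measure how much intact transcript is lost. In CPM scaled by the TMM method of edgeR, its level was 718, 661 and 690 in Control, 701, 622 and 635 in NFKO, 717 and 953 in AnkGKO, and 559, 606 and 603 in DKO. The NFKO libraries overlapped Control, the DKO libraries lay below every other library, and AnkGKO replicate 2 was far above all others. Against the Control library of the same replicate number, Nfasc was lower in NFKO in 3 of 3 pairs. So was L1cam in 3, Nrcam in 2 and Chl1 in 1 of the 3 pairs, and the share over all genes was not computed. Control libraries averaged 690 ± 28.4 CPM (SD, n = 3) and NFKO libraries 653 ± 41.8 (SD, n = 3). AnkGKO libraries averaged 835 ± 167 CPM (SD, n = 2) and DKO libraries 589 ± 26.5 (SD, n = 3). The order of the means was thus AnkGKO, Control, NFKO, DKO, and of the neighbours only NFKO and DKO had ranges that did not overlap.

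A gene was called changed where its adjusted p was under 0.05 and its log2 fold change reached 0.6 in either direction, with edgeR's quasi-likelihood test and Benjamini-Hochberg adjustment over 17557 genes. In NFKO, Nfasc differed from Control by a log2 fold change of -0.079 (SE 0.095), which was not significant (edgeR adjusted p = 0.969, and 0.992 with replicate number as a block). The 95% confidence interval ran from 0.820 to 1.09 times the Control level. In DKO, the difference from Control was -0.23 (SE 0.095, interval -0.43 to -0.020), equal to 0.854 times the Control level, with an unadjusted p of 0.0342 and an edgeR adjusted p of 0.619. DKO and NFKO, which carry the same floxed Nfasc alleles and Cre, differed by -0.15 (SE 0.095, edgeR adjusted p = 0.469).

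Against AnkGKO, the only other group with Ank3 targeted, Nfasc in DKO was lower by -0.50 on the log2 scale (SE 0.105, interval -0.73 to -0.27), with an unadjusted p of 0.00046 and an edgeR adjusted p of 0.137. That value rested on AnkGKO replicate 2. Without AnkGKO replicate 2 the difference was -0.29 (edgeR adjusted p = 0.706), and without AnkGKO replicate 1 it was -0.69 (edgeR adjusted p = 0.0232), past both thresholds. DESeq2 with a local dispersion fit gave -0.51 and an adjusted p of 0.000489, with a fold change short of 0.6. AnkGKO against Control was 0.28 (SE 0.105, edgeR adjusted p = 0.774) and moved to 0.058 without AnkGKO replicate 2 and to 0.47 without AnkGKO replicate 1.

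**Figure D2:**
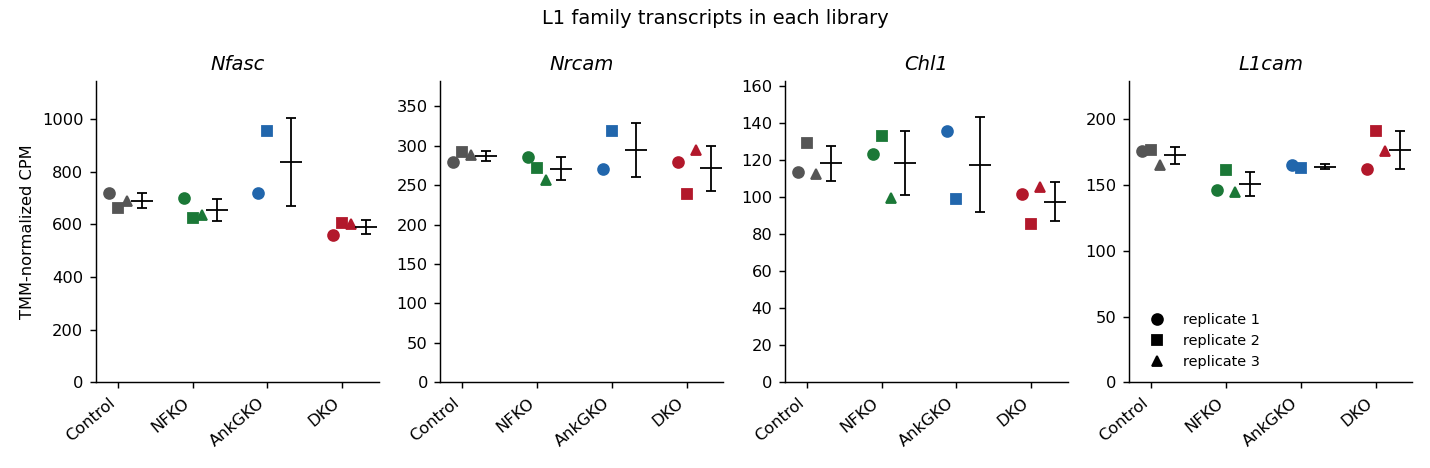
TMM-normalized CPM of Nfasc, Nrcam, Chl1 and L1cam in each library by genotype, with replicates 1, 2 and 3 as circles, squares and triangles and the mean ± SD of each group in black beside them. Nfasc in DKO (559 to 606) lies below Control (661 to 718), and AnkGKO replicate 2 reaches 953.

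The groups were also pooled by which gene was targeted. The 6 Nfasc-targeted libraries (NFKO and DKO) spanned 559 to 701 CPM of Nfasc and the 5 Nfasc-intact libraries (Control and AnkGKO) 661 to 953, with NFKO replicate 1 above Control replicates 2 and 3. The log2 fold change was -0.29 (SE 0.071, interval -0.45 to -0.14), or 0.817 times the intact level, with an unadjusted p of 0.0015 that ranked 86 of 17557 genes and an edgeR adjusted p of 0.306. DESeq2 gave the same size, -0.29, with an adjusted p of 0.00825. Leaving out AnkGKO replicate 1 gave -0.39 with an edgeR adjusted p of 0.0416, and leaving out AnkGKO replicate 2 gave -0.19. In these alternatives the fold change stayed short of 0.6. The Ank3-targeted libraries (AnkGKO and DKO) differed from the Ank3-intact ones by 0.064 in Nfasc (SE 0.071, edgeR adjusted p = 0.785). The interaction, which asks whether targeting Ank3 changes Nfasc to a different extent when Nfasc is also targeted, was -0.42 (SE 0.14, unadjusted p = 0.0115, edgeR adjusted p = 0.31), and without AnkGKO replicate 2 it was -0.21.

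A ratio within each library does not depend on how the libraries are scaled. Nfasc divided by the geometric mean of Nrcam, Chl1 and L1cam was 4.05, 3.51 and 3.95 in Control, 4.06, 3.47 and 4.11 in NFKO, 3.94 and 5.53 in AnkGKO, and 3.36, 3.85 and 3.42 in DKO. The Control and NFKO ratios covered nearly the same range, and 2 of the 3 DKO libraries lay below all others. The 6 Nfasc-targeted libraries differed from the 5 Nfasc-intact libraries by -0.16 on the log2 scale, a ratio 10.7% lower, which an exact two-sided permutation test over 462 splits did not separate (p = 0.203, smallest possible 0.00216). That test takes no account of replicate numbers. The difference was -0.16 with Nrcam, -0.13 with Chl1 and -0.20 with L1cam as the only reference, and -0.060 without AnkGKO replicate 2. Between Control and NFKO the ratio differed by 0.014, where 3 libraries against 3 cannot reach an exact permutation p under 0.1.

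**Figure D3:**
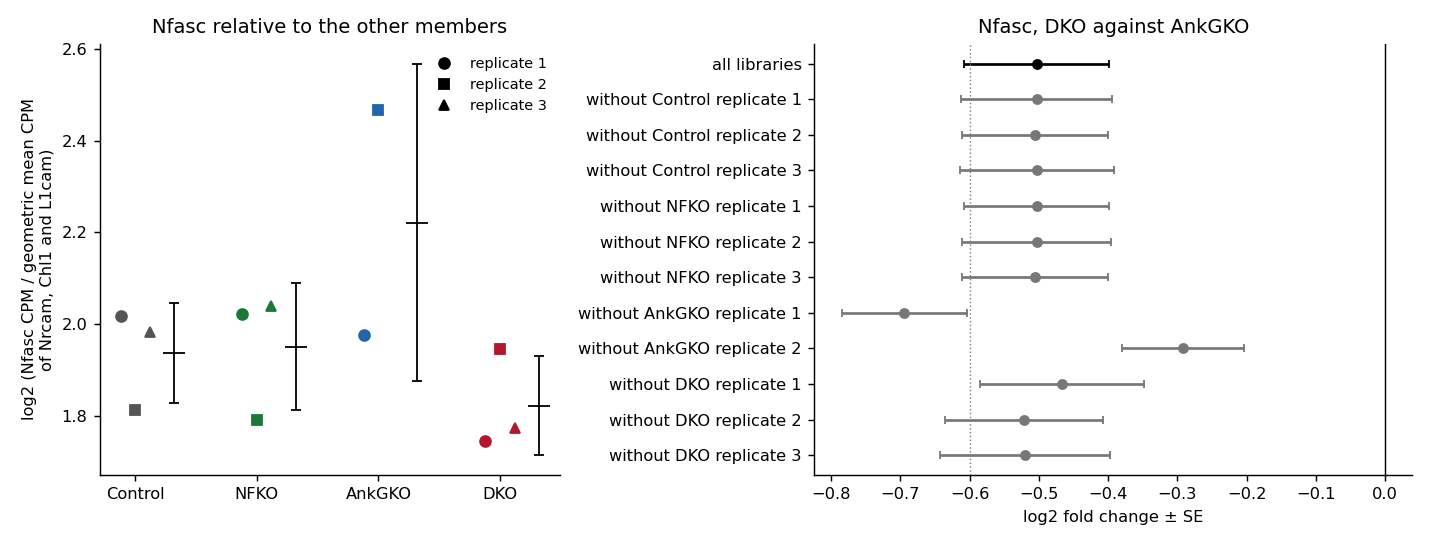
Left, log2 ratio of Nfasc to the geometric mean of Nrcam, Chl1 and L1cam in each library by genotype, with mean ± SD in black. Right, log2 fold change ± SE of Nfasc in DKO against AnkGKO with all libraries and with each library left out, where the value lies between -0.69 and -0.29 and moves most when an AnkGKO replicate is left out.

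Nrcam, the nodal partner of NF186, was the steadiest member. Its level was 279, 292 and 288 CPM in Control, 285, 271 and 256 in NFKO, 270 and 318 in AnkGKO, and 279, 239 and 295 in DKO. Every pair of genotypes overlapped, and the highest value was again that of AnkGKO replicate 2. Mean levels were 286 ± 6.50 CPM for Control, 271 ± 14.3 for NFKO, 294 ± 34.0 for AnkGKO and 271 ± 28.9 for DKO (SD, n = 3, 3, 2 and 3). Log2 fold changes against Control were -0.082 in NFKO (SE 0.086), 0.038 in AnkGKO (SE 0.096) and -0.080 in DKO (SE 0.086), with edgeR adjusted p-values of 0.828 to 0.998. The intervals of these comparisons ran from 0.830 to 1.08 times Control in NFKO, 0.888 to 1.19 times in AnkGKO and 0.831 to 1.08 times in DKO. Between DKO and NFKO the difference was 0.0023 (interval -0.18 to 0.19).

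Chl1, the most distant member in sequence, had the lowest level. It was at 114, 129 and 112 CPM in Control, 123, 133 and 99.5 in NFKO, 136 and 99.4 in AnkGKO, and 102, 85.6 and 106 in DKO. The DKO libraries lay below all 3 Control libraries but overlapped NFKO and AnkGKO. Mean levels were 118 ± 9.44 CPM for Control, 119 ± 17.3 for NFKO, 118 ± 25.7 for AnkGKO and 97.7 ± 10.6 for DKO (SD, n = 3, 3, 2 and 3). The log2 fold change of Chl1 in DKO was -0.28 against Control (SE 0.14, interval -0.58 to 0.026, edgeR adjusted p = 0.646), -0.28 against NFKO (edgeR adjusted p = 0.348) and -0.27 against AnkGKO (edgeR adjusted p = 0.662). The last of these was -0.025 without AnkGKO replicate 1 and -0.48 without AnkGKO replicate 2. In NFKO and AnkGKO the differences from Control were 0.0016 and -0.011, with SE of 0.137 and 0.153. Spread within groups was wide for Chl1: its 2 AnkGKO libraries, at 136 and 99.4 CPM, lay farther apart than any pair of group means.

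L1cam, the only member on the X chromosome, was lowest in NFKO. Its level was 176, 176 and 164 CPM in Control, 146, 161 and 145 in NFKO, 165 and 162 in AnkGKO, and 162, 190 and 176 in DKO. All 3 NFKO libraries lay below every library of the other groups. Mean levels were 172 ± 6.59 CPM for Control, 150 ± 9.01 for NFKO, 164 ± 1.82 for AnkGKO and 176 ± 14.4 for DKO (SD, n = 3, 3, 2 and 3). The log2 fold change of L1cam in NFKO against Control was -0.19 (SE 0.071, interval -0.35 to -0.039), with an unadjusted p of 0.0181 and an edgeR adjusted p of 0.496. DKO exceeded NFKO by 0.23 (SE 0.071, interval 0.071 to 0.38), with an unadjusted p of 0.00788 and an edgeR adjusted p of 0.161, and DESeq2 gave an adjusted p of 0.0246 for it with a fold change short of 0.6. DKO differed from Control by 0.032 and AnkGKO from Control by -0.073. The interaction for L1cam was 0.30 (SE 0.106, unadjusted p = 0.016, edgeR adjusted p = 0.343).

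The libraries of mixed sex were not balanced over the genotypes, and this moved with L1cam. Xist, transcribed from the inactive X chromosome of females, was at 464, 598 and 0.428 CPM in Control, 0.344, 0.655 and 1.39 in NFKO, 0.598 and 0.413 in AnkGKO, and 28.4, 459 and 469 in DKO. L1cam was at 176 to 190 CPM in the 4 libraries with Xist above 100 CPM and at 145 to 165 CPM in the 7 others, without overlap. Among all genes tested 0.524% were higher in the same 4 libraries without overlap, and Nfasc, Nrcam and Chl1 overlapped. With log2 CPM of Xist as a covariate, the difference of L1cam between NFKO and Control was -0.10 (SE 0.087, edgeR adjusted p = 0.868), that between DKO and NFKO 0.11 (SE 0.099, edgeR adjusted p = 0.632) and the interaction 0.091. With this covariate the L1cam difference between DKO and AnkGKO turned from 0.10 to -0.014, and that between AnkGKO and Control from -0.073 to 0.021. The 1 Control library with low Xist, replicate 3, was at 164 CPM of L1cam, above all 3 NFKO libraries. No NFKO or AnkGKO library had Xist above 100 CPM, so that values within the high-Xist libraries exist for Control and DKO only. The part of sex in these differences was not tested beyond the covariate.

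Over all 8 contrasts, no member was called in the fit of edgeR. The share of all genes called was 0.365% in NFKO against Control, 0.165% in AnkGKO against Control, 0.0228% in DKO against Control, 0.615% in DKO against NFKO, 0.171% in DKO against AnkGKO, 0.103% in the Nfasc-targeted and 0.131% in the Ank3-targeted comparison, and 0.53% in the interaction. Calls were rare in every contrast, so an absence of calls among 4 genes stands close to what all genes gave. At an unadjusted p under 0.05, 1 of 4 members passed in each of NFKO (L1cam), AnkGKO (Nfasc) and DKO (Nfasc) against Control, where 7.69%, 5.39% and 7.78% of all genes did. DESeq2 gave no member past both thresholds in any contrast.

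Ranges that did not overlap were counted in the same way. Between NFKO and Control this held for 1 of 4 members, L1cam, which was lower, and for 13.9% of all genes (7.42% higher and 6.51% lower). Between DKO and Control it held for 2 of 4, Nfasc and Chl1, both lower, and for 14.4% of all genes (7.65% higher and 6.8% lower). Between DKO and NFKO it held for 2 of 4, with Nfasc lower and L1cam higher, and for 19.3% of all genes (9.32% higher and 10% lower). Only Nfasc separated DKO from AnkGKO, where 23.7% of all genes did, and no member separated AnkGKO from Control, where 24% did. In the pooled comparisons no member separated, against 0.387% of genes for Nfasc-targeted and 1% for Ank3-targeted libraries. The median log2 fold change of the members was -0.081 in NFKO, 0.013 in AnkGKO and -0.15 in DKO against Control, beside medians of all genes of -0.0050, -0.0050 and -0.00062. These contrasts share the Control libraries, and the genotypes DKO and AnkGKO enter several of them.

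**Figure D4:**
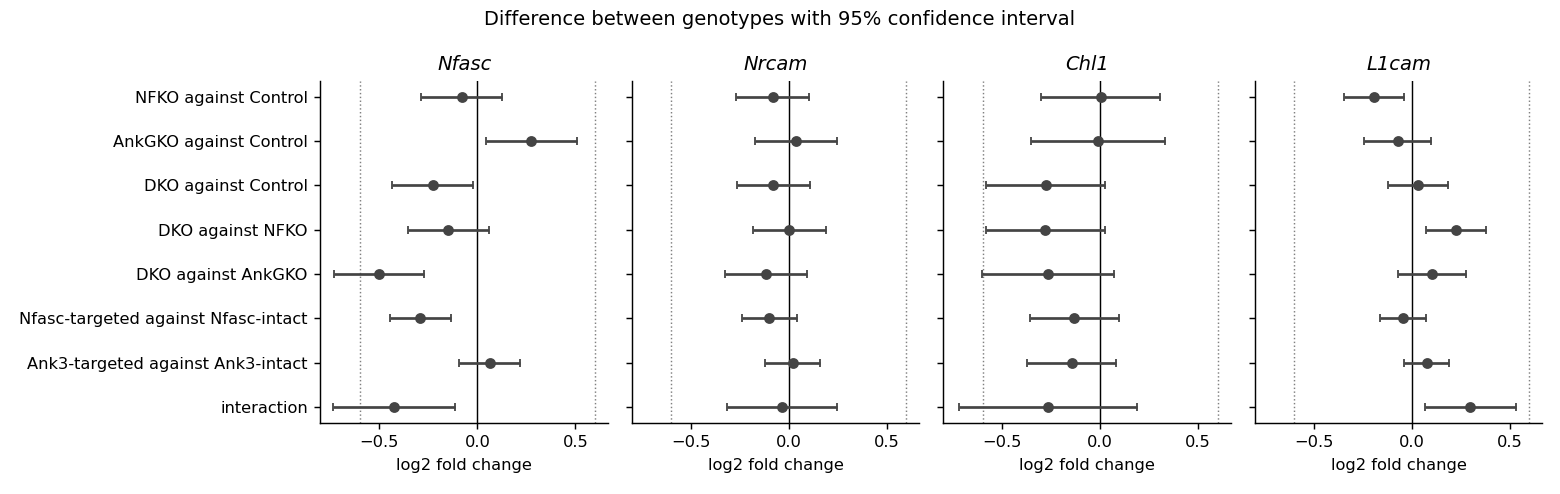
Log2 fold change (points) with 95% confidence interval (bars) of each member in the 8 contrasts, from 1 edgeR fit over all 11 libraries, where dotted lines mark a change of 0.6 in either direction. The lowest estimate is Nfasc in DKO against AnkGKO at -0.50, and the highest is L1cam in the interaction at 0.30.

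Because both neurons and glia make L1 family members, their levels were set beside marker lists of cell types. Summed over 8 genes, oligodendrocyte markers ranged from 27047 to 33295 CPM, with 29873 to 32171 in Control and 28758 to 30281 in DKO. Summed Schwann cell markers were at 421 to 462 CPM in all 3 NFKO libraries against 191 to 287 in Control, 199 to 348 in AnkGKO and 171 to 363 in DKO. Summed astrocyte markers were at 7659 and 7950 CPM in AnkGKO against 5578 to 5881 in Control. They were at 6433 to 6717 CPM in DKO and 5179 to 6144 in NFKO. Summed motor neuron markers were at 479 to 597 CPM in DKO, against 217 to 388 in Control, 239 to 464 in NFKO and 266 to 590 in AnkGKO. L1cam was lowest in the NFKO libraries, which had the highest summed Schwann cell markers. By the mean log2 level of the list, however, DKO replicate 2, the library with the most L1cam, was at 4.33, within the 4.21 to 4.34 of NFKO. The defining Schwann cell genes were low or variable, with Prx from 0.637 to 43.4 CPM and Pmp2 at or below the floor in 1 library. The part of these cells in the member levels was not tested.

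Correlations between the 4 members and the mean log2 levels of 4 lists (oligodendrocyte, Schwann cell, neuron and granule cell) gave 16 relations over 11 libraries, and none had an adjusted permutation p under 0.05. The nearest was Nrcam with the Schwann cell list, at r = -0.67 (permutation p = 0.0249, adjusted 0.398) and rho = -0.79 (permutation p = 0.00574, adjusted 0.0918). Without the 2 libraries farthest from the median of the list, r was -0.57, and after subtraction of the genotype means it was -0.77. Chl1 with the oligodendrocyte list gave r = -0.54 (permutation p = 0.0867, adjusted 0.694) and rho = -0.69 (permutation p = 0.0228, adjusted 0.182), and r was -0.35 without the 2 farthest libraries and -0.78 after subtraction of the genotype means. Nfasc gave r = 0.33 with the oligodendrocyte list (permutation p = 0.309, adjusted 0.825) and rho = 0.24 (permutation p = 0.488, adjusted 0.968). That r was 0.54 without NFKO replicates 2 and 3, the libraries farthest from the median. After subtraction of the genotype means, r of Nfasc was 0.53 with the oligodendrocyte list. In the same way it was 0.54 with the neuron list (-0.12 before) and -0.48 with the Schwann cell list (-0.20 before). L1cam had no r beyond 0.38 in size with any list over the 11 libraries, and after subtraction of the genotype means its r with the neuron list was -0.74 (0.11 before).

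The ankyrins and spectrins that receive the tails of the L1 family were examined next. Ank3 fell in AnkGKO by 1.03 and in DKO by 1.07 on the log2 scale against Control (SE 0.101 and 0.088, edgeR adjusted p = 0.00108 and 0.000461), and it was the 1 called gene of 7 in the list. Spnb4, which encodes the beta-IV spectrin of the initial segment and is listed under its older symbol, was at 227, 213 and 193 CPM in Control and at 184, 182 and 195 in DKO. Its difference of -0.17 was not significant (edgeR adjusted p = 0.618). Spnb2, the gene of beta-II spectrin, differed by 0.15 between AnkGKO and Control (edgeR adjusted p = 0.97).

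In the other 7 lists of partners, no gene was called in any of the 8 contrasts by edgeR with all libraries. Over the 8 lists together, 53 of 53 partner genes were tested. At an unadjusted p under 0.05, 7.55% of the partner genes passed in NFKO, 7.55% in AnkGKO and 15.1% in DKO against Control, beside 7.69%, 5.39% and 7.78% of all genes. The partner shares in AnkGKO and DKO include Ank3, which is itself the targeted gene there. In DKO against AnkGKO, 1.89% of the partner genes passed, beside 8.48% of all genes. The median log2 fold change of the 53 was -0.015 in NFKO, 0.024 in AnkGKO and -0.033 in DKO.

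Of the extracellular ligands, Gldn came nearest to a call. Gldn encodes gliomedin, a Schwann cell ligand that binds neurofascin and NrCAM at peripheral nodes. It was at 2.76, 2.84 and 3.74 CPM in Control, 5.66, 6.59 and 6.04 in NFKO, 4.60 and 2.63 in AnkGKO, and 4.99, 4.34 and 3.53 in DKO. All NFKO libraries exceeded all others, and the log2 fold change was 0.97 (SE 0.215, edgeR adjusted p = 0.0959). The edgeR adjusted p was 0.046 when only the NFKO and Control libraries were fitted, and DESeq2 gave 0.00113. The same NFKO libraries held the highest summed Schwann cell markers, and their part in the Gldn level was not tested. Ptprz1, a receptor phosphatase that binds members of this family, was at -0.20 in DKO against Control (edgeR adjusted p = 0.629), and Bcan, the matrix protein brevican of nodes, at -0.14 (edgeR adjusted p = 0.691).

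Semaphorin receptors pair with L1 and its relatives as co-receptors. Nrp1, which encodes neuropilin 1, was at 33.9, 42.4 and 45.2 CPM in Control and at 52.4 and 57.9 in AnkGKO, a log2 fold change of 0.45 (SE 0.139, edgeR adjusted p = 0.536). Nrp2 differed by 0.27 between NFKO and Control (edgeR adjusted p = 0.503) and Sema3a by 0.32 between AnkGKO and Control (edgeR adjusted p = 0.941). None of the 7 genes of this list was called by edgeR, and DESeq2 called Nrp1 in the interaction alone, at -0.75 (DESeq2 adjusted p = 0.0048).

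Sheddases cut the ectodomains of the family from the cell surface. All 3 genes of that list had negative estimates in DKO against Control, at -0.27 for Adam17, -0.11 for Adam10 and -0.11 for Bace1, with edgeR adjusted p-values of 0.639, 0.691 and 0.744. Channels and channel subunits that gather with NF186 at the initial segment gave no call either. Scn2b had the lowest log2 fold change of them in DKO against Control, at -0.38 (SE 0.149, edgeR adjusted p = 0.618). Its level was 124, 117 and 140 CPM in DKO against 195, 179 and 122 in Control. The pore-forming subunit Scn2a1 was at a log2 fold change of -0.26 (edgeR adjusted p = 0.717). In DKO against NFKO, Scn2b passed both thresholds when Xist was a covariate, at -0.89 (edgeR adjusted p = 0.0245).

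Contactin 1 and Caspr form the paranodal complex with NF155, while contactin 2 and Caspr2, from Cntn2 and Cntnap2, belong to the neighbouring juxtaparanode. Cntnap1, the gene of Caspr, was at -0.12 in DKO against Control (edgeR adjusted p = 0.654), and Cntn2 and Cntnap2 were at 0.12 and -0.14 in NFKO against Control (edgeR adjusted p = 0.883 and 0.887). Of the cytoplasmic adaptors, Msn, which encodes moesin of the ERM proteins that bind L1 tails, was at 115, 105 and 111 CPM in Control and 136, 159 and 129 in DKO, a difference of 0.35 (SE 0.105, edgeR adjusted p = 0.562). Hspa8, which encodes a constitutive chaperone that uncoats clathrin vesicles, varied from 32.6 to 95.1 CPM within Control alone and was at 94.96, 171 and 163 in DKO, with a log2 fold change of 1.29 (SE 0.41, edgeR adjusted p = 0.603). Dlg1, a membrane scaffold, was at -0.18 (edgeR adjusted p = 0.609).

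**Figure D5:**
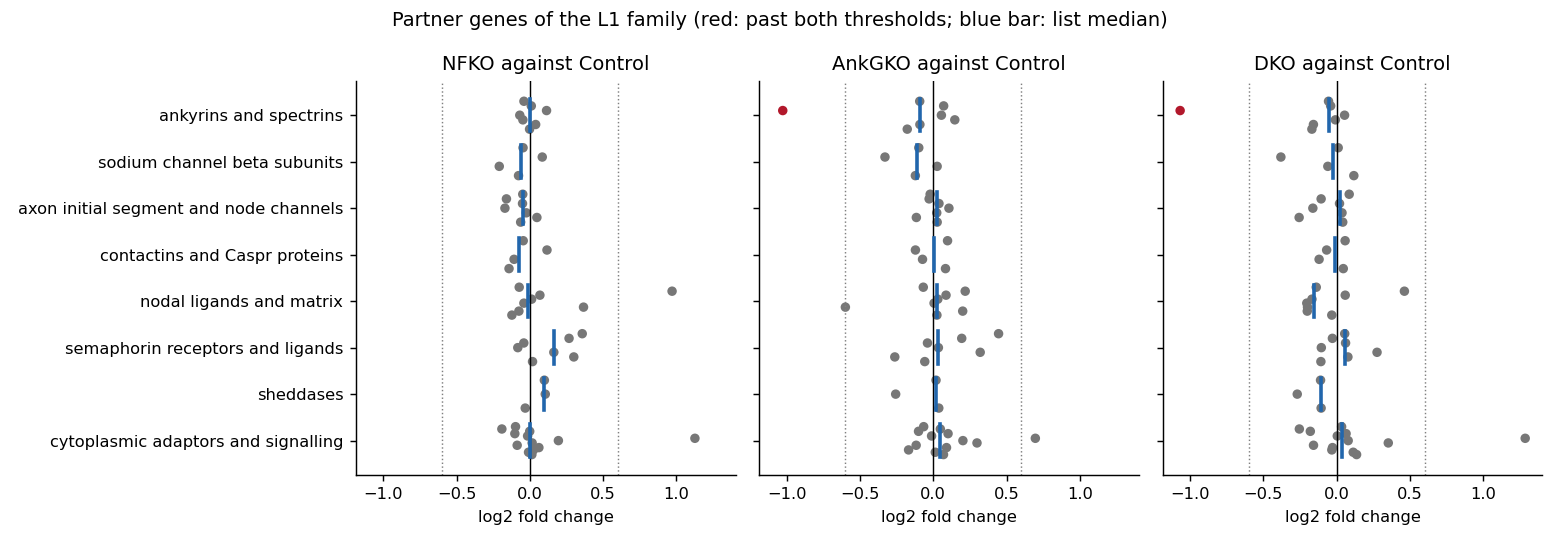
Log2 fold change against Control of the 53 partner genes by list, with 1 point per gene, red where past both thresholds, and a blue bar at the median of each list. The single red point in AnkGKO and in DKO is Ank3, at -1.03 and -1.07, and no point is red in NFKO.

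The genes most like each member were taken as the 3 with the highest Pearson r of log2 CPM over the 11 libraries among 10239 genes with a mean of at least 10 CPM, as a description. For Nfasc they were 1300010F03Rik (r = 0.91), Ide (r = 0.91) and Nova2 (r = 0.91), and for Nrcam they were Rnf150 (r = 0.94), Slitrk2 (r = 0.94) and Pgr (r = 0.92). For Chl1 they were Rnf152 (r = 0.95), Frmd6 (r = 0.93) and AI504432 (r = 0.93), and for L1cam Ndufc2 (r = 0.92), Scpep1 (r = 0.88) and Prkcdbp (r = 0.88). No gene stood in more than 1 of these lists, and no member stood in the list of another.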

How the data were processed

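Bulk polyA RNA-seq of 11 libraries was grouped by the genotype given in the labels. Per the labels and the study's methods, the authors trimmed reads (Trimmomatic 0.39), aligned them to GRCm39 (STAR 2.7.11a) and deposited raw read counts per gene. They also deposited a normalized signal, the counts divided by 1 size factor per library (0.815 to 1.16), and 100% of its values matched that quotient within a relative tolerance of 1e-06. The labels give single-end reads of 100 bases and the methods a paired-end layout. The 5 lines without a gene, 42.7% to 43.8% of all counts, were left out. Most of them were reads not aligned uniquely.

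The 17557 of 22609 genes that reached 10 counts summed over the libraries were tested in 1 fit over the 4 genotypes with edgeR 4.0.16 in R 4.3.3 (TMM, robust quasi-likelihood, Benjamini-Hochberg over all genes). Alternatives were DESeq2 1.42.0 with a local dispersion fit, DESeq2 size factors, other count filters, only the libraries compared, the replicate block, covariates (Xist, oligodendrocyte or granule cell markers) and each library left out. Leaving out Control replicate 1 and NFKO replicate 1 together was added after seeing the data. The members, gene lists and tests were chosen with earlier results of these data known. Partner genes named are those called, otherwise up to 3 per list with the smallest p against Control. Older symbols in the table (Spnb4, Scn2a1, Gsbs) were matched to the lists as aliases. Ratios were compared by exact permutation and correlations by 100000 permutations (scipy 1.17.1). Positions and sequences came from GENCODE annotation of GRCm39.

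Same-numbered NFKO and Control libraries deviated together (r = 0.60, 0.50 and 0.23 over 13910 genes). These numbers, whose meaning the labels do not state, were therefore taken to pair those libraries. That pairing was read from the same data. It did not extend to AnkGKO, whose replicates 1 and 2 gave r = -0.38 and -0.49 with same-numbered Control libraries. Same-numbered DKO and Control libraries gave r = -0.10, 0.29 and -0.036. Replicate number as a block over all genotypes is thus no test of a known pairing. With the replicate block no member's call changed. Replicates differed by more than counting noise. The depth of 38890851 to 55822361 counts per library gave at least 3664 reads per member. Both fits were tested on simulated data for DKO against Control only, in which DESeq2 made more false calls than edgeR.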

Additional observations from a re-analysis of the deposited data

Results flagged for a closer look

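AnkGKO replicate 2 stood apart in Nfasc. Among the 5 Nfasc-intact libraries its level of 953 CPM was separated from the next, 718 CPM in Control replicate 1, by 0.805 of the whole range. The ratio of Nfasc to the other 3 members in the same library, 5.53, was separated likewise among the Nfasc-intact libraries and among the 5 Ank3-targeted libraries. The ratio is free of library scaling, and the raw counts were 43876 reads of Nfasc in this library against 34758 in AnkGKO replicate 1 at nearly equal depth. Nrcam, at 318 CPM, was also highest in this library, but its gap of 0.539 of the range was below the critical value, and Chl1 and L1cam were at 99.4 and 162 CPM. In all, 20 groups of values were examined, of which 3 were separated in this way, all in this library. The groups share libraries and the ratio contains Nfasc, so the 3 are not independent, and all involve the Nfasc value of this library. The 5% of groups that chance separates is therefore no measure for them.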

How the results depend on the processing

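Depth, at 3664 reads or more per member and library, limited no member value, while the 2 AnkGKO libraries and the spread between them limited every contrast that uses AnkGKO. Where 1 AnkGKO library was left out, the other was assumed to vary like the libraries of the other groups. Taking both thresholds together, the alternatives changed no member's call except that of Nfasc in DKO against AnkGKO without AnkGKO replicate 1. The adjusted p alone passed 0.05 with DESeq2 for Nfasc in DKO against AnkGKO (0.000489) and in the Nfasc-targeted comparison (0.00825) and for L1cam in DKO against NFKO (0.0246), and with edgeR for Nfasc in the Nfasc-targeted comparison without AnkGKO replicate 1 (0.0416). The replicate block, whose numbers did not pair AnkGKO with Control libraries, changed no member's call.

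Apart from single libraries left out, directions turned as follows. Nrcam in DKO against NFKO was at -0.0020 without a count filter and at -0.000216 with filterByExpr, and Chl1 in NFKO against Control was at -0.0028 with the replicate block and at -0.0034 with the granule cell covariate. Chl1 in AnkGKO against Control was at 0.053 with the granule cell covariate and at 0.019 with Xist as a covariate. With Xist as a covariate the Nrcam interaction was at 0.032, and L1cam was at 0.021 in AnkGKO against Control and at -0.014 in DKO against AnkGKO. Without Control replicate 1 and NFKO replicate 1 together, the Nrcam interaction was at 0.021 and Chl1 in NFKO against Control at -0.057. The causes were not tested.

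With 1 library left out at a time, log2 fold changes of Nfasc ranged from -0.69 to -0.29 in DKO against AnkGKO and from -0.047 to 0.16 in the Ank3-targeted comparison. Those of Nrcam ranged from -0.084 to 0.15 in AnkGKO and from -0.14 to 0.0017 in DKO against Control, from -0.063 to 0.086 in DKO against NFKO, from -0.043 to 0.077 in the Ank3-targeted comparison and from -0.15 to 0.083 in the interaction. Those of Chl1 ranged from -0.089 to 0.12 in NFKO and from -0.25 to 0.20 in AnkGKO against Control, and those of L1cam from -0.030 to 0.089 in DKO against Control.

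Counts of genes called, in the order of NFKO, of AnkGKO and of DKO against Control, then DKO against NFKO, DKO against AnkGKO, Nfasc-targeted, Ank3-targeted and interaction, were 64, 29, 4, 108, 30, 18, 23 and 93 by edgeR and 159, 102, 44, 418, 99, 59, 127 and 318 by DESeq2. With Xist as a covariate they were 31 in NFKO and 15 in AnkGKO against Control, 43 in DKO against NFKO, 13 in DKO against AnkGKO and 20 in the interaction. With Control replicate 1 and NFKO replicate 1 left out together, they were 29 in NFKO against Control, 59 in DKO against NFKO, 5 in the Nfasc-targeted and 11 in the Ank3-targeted comparison, and 41 in the interaction. DKO against AnkGKO gave 11 genes with only those libraries, the Nfasc-targeted comparison 9 with the replicate block, and the Ank3-targeted comparison 10 with the granule cell covariate. With 1 library left out, the counts ranged over 40 to 71, 18 to 35, 4 to 8, 68 to 162, 12 to 40, 4 to 23, 13 to 26 and 52 to 102 in the same order.

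Partner genes called rose from 0 to 1, Gldn, in NFKO against Control with DESeq2, with only those libraries, and without AnkGKO replicate 1 or 2 (0 to 1 over the libraries left out). They rose from 0 to 1 with DESeq2 in the Nfasc-targeted comparison (Gldn) and in the interaction (Nrp1), and from 1 to 2 in DKO against NFKO with Xist as a covariate (Scn2b beside Ank3).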
